A study of Homo sapiens with 2 samples.

Results

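LM3 is an established line of human hepatocellular carcinoma cells, the commonest primary cancer of the liver, known in the field for its capacity to metastasise. The genes described here are those that the wild-type library of this line held at 1 FPKM or more, where FPKM is the number of sequenced fragments scaled to transcript length and library size. A gene's level was the larger of its summed transcript starts and its summed transcript ends, and only loci with 1 gene symbol were used. By this rule 8464 of 29677 genes were kept, which is 28.5% of them. The study set LM3 cells with a knockout of NCOA5, a nuclear receptor coactivator, against wild-type LM3 cells, with 1 library of each genotype. No treatment, time or passage is given for either. Only the wild-type library is described, so no level has a replicate check and no test was possible.

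Hepatocytes secrete most plasma proteins and carry the enzymes of bile acid, urea, amino acid and drug metabolism. A small set of transcription factors, among them HNF4A and the FOXA proteins, maintains that programme. Hepatocellular carcinoma arises from hepatocytes, can regain foetal liver genes such as AFP, and can lose adult liver functions as it dedifferentiates. Liver tumours and lines also vary in how far they carry keratins and other genes of bile duct epithelium, and genes of mesenchymal cells.

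The levels of the 8464 genes spanned almost 4 orders of magnitude. Their median was 12.7 FPKM, with quartiles of 5.03 and 30.6 FPKM, and the highest was 5875 FPKM. A further 3164 genes lay above 0 and under 1 FPKM, and 18049 were listed at 0, which in tables without read counts can also be a failed estimate. Of the kept genes, 3665 lay at 1 to under 10 FPKM, 4252 at 10 to under 100, 517 at 100 to under 1000, and 30 at 1000 FPKM or more. Of all 29677 genes, 16.2% reached 10 FPKM and 1.84% reached 100 FPKM. The class of 10 to under 100 FPKM was thus the largest by number, with 50.2% of the kept genes. The summed level was shared in another way: the 3665 lowest genes held 5.23% of it, the 517 genes of the third class 37.4%, and the 30 highest genes 17.3%. The 10 highest genes alone held 9.41%, and the 1000 highest held 65.4%. At the lower limit, RP11-1038A11.3, MUC4 and ZNF850 were just inside, at 1.001, 1.002 and 1.0027 FPKM. ADAMTS1, NBPF19 and ZKSCAN2 were just outside, at 0.9999, 0.9996 and 0.9995 FPKM.

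**Figure D1:**
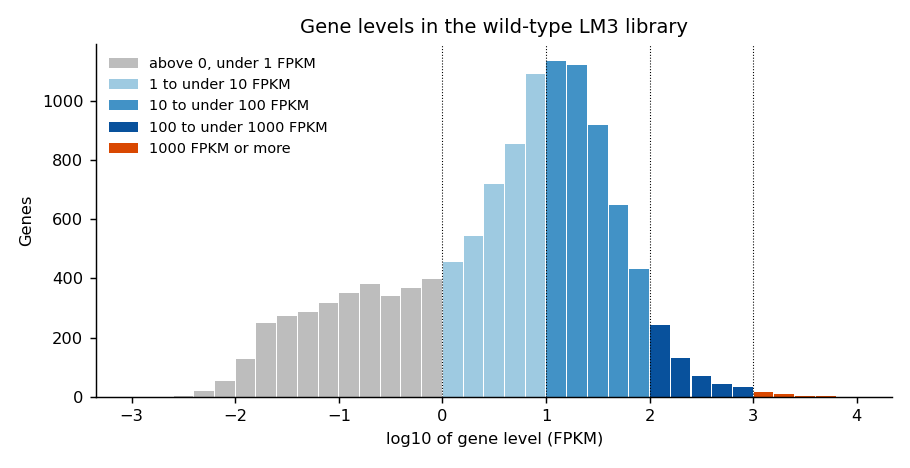
Genes (vertical axis) by level in the wild-type LM3 library (horizontal axis, log10 FPKM, bins of 0.2), coloured by level class; genes listed at 0 are not drawn. The 2 tallest bins lie just above 10 FPKM, and only 30 genes lie at 1000 FPKM or more.

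Protein-coding genes made up 92.5% of the kept genes. Another 436 kept genes, 5.15%, matched no symbol of the annotation used, among them ATP5B of ATP synthase at 565 FPKM. The 92.5% is thus a lower limit, and unmatched genes are not in the shares of protein-coding genes given here. Of 14313 protein-coding genes in single-gene loci, 7830 reached 1 FPKM, which is 54.7%, with a median of 13.6 FPKM. Long intergenic RNAs reached it less often, 71 of 1346 genes, with a median of 3.01 FPKM, and antisense RNAs in 38 of 1109 genes. Shares of lists below are to be read against the 54.7% of protein-coding genes. By chromosome, the share of protein-coding genes at 1 FPKM or more ran from 44.8% on the X chromosome to 61.3% on chromosome 9. The median level of those genes was 4.79 FPKM on chromosome 13, the lowest of the autosomes, against 9.15 FPKM on chromosome 4, the next lowest, and 18.1 FPKM on chromosome 17, the highest of the autosomes. RB1, the retinoblastoma tumour suppressor of chromosome 13 and chosen after its value was seen, was at 2.62 FPKM.

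The 30 highest genes were led by FTH1, the ferritin heavy chain that stores iron, at 5875 FPKM. That value is its start sum, and its ends summed to 2145 FPKM. An end above 0 was listed for 23 of the 30, and the ends of RPL13 summed to 716 FPKM. The order of these genes thus depends on the use of the larger sum. Of the 30, 13 encoded cytosolic ribosomal proteins, with RPS27 at 5173 FPKM, RPL41 at 3031 FPKM, RPS24 at 2456 FPKM, RPL13 at 2338 FPKM and RPS16 at 2150.3 FPKM. EEF1A1, which delivers aminoacyl-tRNA to the ribosome, was at 2279.7 FPKM. Among glycolytic enzymes, GAPDH was at 3181 FPKM, PKM, a pyruvate kinase, at 1517 FPKM, and ENO1, an enolase, at 1149 FPKM. TMSB10, a thymosin that binds actin monomers, was at 2574 FPKM, and PPIA, the peptidyl-prolyl isomerase cyclophilin A, at 1900.0 FPKM. These genes are abundant in most growing cells.

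The rest of the 30 were genes of narrower use. MET, the receptor tyrosine kinase for hepatocyte growth factor, was at 1355 FPKM, and CAV1, the coat protein of caveolae, at 1521 FPKM. The calcium-binding proteins S100A11, S100A10 and S100A6 were at 1917, 1364 and 1239 FPKM, and ANXA2, the annexin that forms a complex with S100A10, was at 1042 FPKM. AKR1B1, an aldose reductase, was at 1294 FPKM. HSPB1, a small heat shock protein, was at 1113 FPKM. NQO1, a quinone reductase, and TXN, thioredoxin, both known targets of the oxidative stress factor NRF2, were at 1032 and 1001 FPKM. No gene of the secreted plasma protein or hepatocyte enzyme lists stood among the 30.

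**Figure D2:**
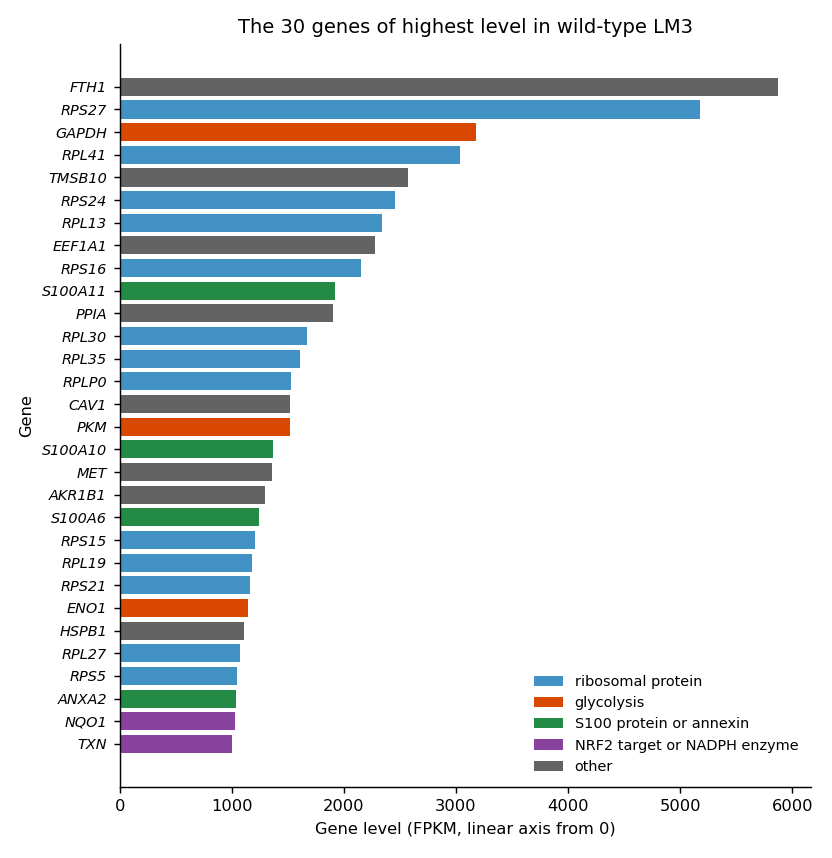
The 30 genes of highest level, top to bottom, with the level in FPKM on a linear axis from 0 and colours for gene group. FTH1, by its start sum, and RPS27 stand apart at 5875 and 5173 FPKM, and MET at 1355 FPKM is the only receptor tyrosine kinase shown.

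The loci that the rule leaves out were large ones. Loci of several symbols held 31.9% of the summed level of all loci, and their values cannot be assigned to 1 gene. The ferritin light chain locus of FTL had 14674 FPKM, the locus of S100A5, S100A4 and S100A3 had 4342 FPKM, and that of ACTB, beta-actin, had 2709 FPKM. The locus of AKR1C1, AKR1C3 and AKR1C4, reductases of steroids and aldehydes, had 2547 FPKM, and the locus of KRT1 and KRT8 had 2094 FPKM. Those loci were chosen for mention after their values were seen. A further limit is that single-exon genes were rarely listed: 93 of 979 protein-coding genes with 1 exon in GENCODE 29 had an event, against 17637 of 18957 genes with several exons. CEBPA, CEBPB, SOX4 and SOX2, all of 1 exon, had no listed event and so have no value.

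Plasma proteins and enzymes of hepatocytes reached 1 FPKM less often than protein-coding genes as a whole, of which 54.7% did. Of 26 secreted plasma proteins of hepatocytes with a value, 11 reached 1 FPKM, which is 42.3%. Only 4 of the 26 reached 10 FPKM, a smaller share than the 32.2% of protein-coding genes. The highest were ITIH2, which links to hyaluronan, at 84.2 FPKM, the copper carrier CP (ceruloplasmin) at 49.3 FPKM, APOH, a phospholipid-binding apolipoprotein, at 39.4 FPKM, and RBP4, the retinol carrier, at 38.9 FPKM. AMBP, the precursor of alpha-1-microglobulin, was at 4.99 FPKM, and FGA, a fibrinogen chain, at 3.15 FPKM. ALB, the most abundant plasma protein, was at 1.41 FPKM, close to the limit of 1 FPKM. It is named here for its standing as the defining product of hepatocytes. SERPINA1, APOA2, APOC3, APOM, HPX, ITIH1, ITIH3, F9 and PLG were listed at 0, and 6 members lay between 0.0901 and 0.942 FPKM. In a bulk library, few cells with a message and little message in every cell cannot be told apart.

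Of 33 enzymes and transporters of mature hepatocytes with a value, 7 reached 1 FPKM and 5 of these reached 10 FPKM, 15 lay above 0 and under 1, and 11 were listed at 0. CYP27A1, the sterol 27-hydroxylase of the alternative bile acid pathway, was the highest at 88.9 FPKM. HGD, HPD and FAH, which act in tyrosine breakdown, were at 24.1, 10.2 and 18.2 FPKM. TDO2, the tryptophan dioxygenase, was at 8.36 FPKM, and UGT2B7, a glucuronosyltransferase, at 16.9 FPKM. CYP7A1 and CYP8B1 of the classical bile acid pathway were listed at 0. CPS1, OTC and ARG1 of the urea cycle were also listed at 0, as were G6PC, ADH1B, BHMT, GNMT and the bile acid importer SLC10A1. In the library labelled as hepatocellular carcinoma, the share of these enzymes at 1 FPKM or more was 21.2%. That of the plasma proteins, 42.3%, was nearer to the 54.7% of protein-coding genes.

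Of 21 transcription factors of the liver lineage with a value, 14 reached 1 FPKM, and 6 reached 10 FPKM, both shares near those of all protein-coding genes. The median was 9.67 FPKM over the 14, against 13.6 FPKM over the protein-coding genes at 1 FPKM or more. Over all 21 it was 6.31 FPKM, against 2.26 FPKM over all protein-coding genes. HHEX, which acts early in liver formation, was at 56.7 FPKM, XBP1, the effector of the unfolded protein response, at 52.6 FPKM, and RXRA, the partner of many nuclear receptors, at 42.1 FPKM. HNF4A was at 17.5 FPKM, FOXA2 at 12.3 FPKM and HNF4G at 11.1 FPKM. FOXA1, ONECUT1, NR0B2 and NR1I3 were listed at 0.

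HNF4A, the nuclear receptor at the centre of the programme, is known to use a pair of promoters, P1 in adult hepatocytes and P2 upstream of it in foetal liver, pancreas and gut. All 17.5 FPKM of HNF4A lay on the start at position 44355700 of chromosome 20, and the start at 44401270 was listed at 0. The first is 1 base from the upstream RefSeq start, and the second 31 bases from the downstream RefSeq start. The exon at 44390458 to 44390679 was included in forms with 7.57 FPKM and skipped in forms with 9.89 FPKM. Both start regions are shown because the level lay on only 1 of them. Each is 80 bases of RefSeq sequence on build GRCh38.p14, plus strand, from 60 bases before the RefSeq start, and the capital letter marks the RefSeq start base. The upstream window is chr20:44355639-44355718 and the downstream window chr20:44401179-44401258.
HNF4A upstream: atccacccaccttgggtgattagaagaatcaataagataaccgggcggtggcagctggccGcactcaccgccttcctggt
HNF4A downstream: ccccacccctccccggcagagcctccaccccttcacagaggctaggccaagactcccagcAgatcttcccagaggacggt

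Tumour and oncofetal markers of liver cancer were divided. Of 20 with a value, 13 reached 1 FPKM and 12 reached 10 FPKM, with a median of 57.7 FPKM over the 13 and 22.0 FPKM over all 20. MDK, the growth factor midkine, was at 917 FPKM, SPP1, the secreted matrix protein osteopontin, at 525 FPKM, and DKK1, a secreted Wnt inhibitor, at 131 FPKM. GOLM1, a Golgi protein found in the serum of patients with liver cancer, was at 83.1 FPKM, SPINK1, a trypsin inhibitor, at 76.3 FPKM, and GLUL, glutamine synthetase, at 65.8 FPKM. GPC3, the glypican used in the diagnosis of liver cancer, was listed at 0, as were DLK1, REG3A and CD24. AFP, alpha-fetoprotein, was at 8.80 FPKM, and that level lay on a start at position 73450510 of chromosome 4, which is 14289 bases downstream of the RefSeq start. The AFP start at 73436163, 58 bases from the RefSeq start, was listed at 0. AFP falls outside the naming rule and is given as the standard serum marker.

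Bile duct and epithelial genes were high for a part of their lists. Of 11 biliary and progenitor markers with a value, 7 reached 1 FPKM, which is 63.6%, against 54.7% of protein-coding genes. KRT19, the keratin of bile duct cells, was at 253.5 FPKM, MMP7, a matrix metalloprotease, at 144 FPKM, ANXA4 at 114.5 FPKM and SLC4A2, an anion exchanger, at 70.6 FPKM. ITGB4, an integrin chain, was at 22.2 FPKM and KRT7 at 15.9 FPKM. SOX9, a transcription factor of ducts and progenitors that falls outside the naming rule, was at 9.74 FPKM. EPCAM and PKHD1 of the same list, also outside that rule, lay under 1 FPKM, at 0.413 and 0.0033 FPKM. CFTR and CLDN4 were listed at 0. Of 24 keratins and junction proteins with a value, 16 reached 1 FPKM, which is 66.7%. They were led by KRT20, a keratin of gut epithelium, at 323 FPKM. JUP, plakoglobin, was at 61.8 FPKM, DSG2, a desmosomal cadherin, at 32.6 FPKM, and PKP3, a plakophilin, at 21.3 FPKM. Of the 24, 3 lay above 0 and under 1 FPKM, and KRT5, KRT14, CLDN4, ESRP1 and OVOL1 were listed at 0. CDH1, the epithelial cadherin, was at 2.25 FPKM, a value given because the study's question concerns epithelial and mesenchymal states.

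Mesenchymal genes were present beside them. Of 21 mesenchymal markers and transition factors with a value, 15 reached 1 FPKM, which is 71.4%, against 54.7% of protein-coding genes. The median was 16.6 FPKM over those 15 and 6.18 FPKM over all 21. FN1, fibronectin, was the highest at 934 FPKM, followed by TGFBI, a matrix protein induced by TGF-beta, at 87.7 FPKM. COL6A1 and COL6A2, chains of collagen VI, were at 76.9 and 47.3 FPKM, CDH2, the neural cadherin, at 33.9 FPKM, and CALD1, which binds actin, at 33.0 FPKM. VIM, vimentin, was at 6.18 FPKM and is given beside CDH1 for the same reason. TWIST1, TWIST2, PRRX1, COL5A1 and TAGLN were listed at 0. FN1 is also a plasma protein made by hepatocytes, so its level does not mark 1 cell type.

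Markers of other cells that a sample labelled as liver could hold were mostly near 0. None of 11 leukocyte markers with a value and none of 8 erythroid markers reached 1 FPKM. CD3D, CD3E, CD14, MARCO and NKG7 were listed at 0, and the highest leukocyte marker was LYZ, lysozyme, at 0.914 FPKM. HBB, HBA1, ALAS2, HEMGN, EPB42 and KLF1 of red cells were listed at 0. Of 12 fibroblast and stellate cell markers, 1 reached 1 FPKM, LUM, the proteoglycan lumican, at 14.005 FPKM. COL1A2, ACTA2, RGS5, DES, THY1, POSTN and FAP were listed at 0. Of 13 endothelial markers, 4 reached 1 FPKM, with ESAM, an adhesion molecule, at 22.3 FPKM, and LYVE1, KDR and PECAM1 at 1.60, 1.43 and 1.28 FPKM. FLT1, TIE1, STAB1, STAB2, CLEC4G and ERG were listed at 0.

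Of the lists of other lineages, the intestinal one had the highest share of members at 1 FPKM or more. That share, 45.5%, was still under the 54.7% of protein-coding genes. Of 11 intestinal markers with a value, 5 reached 1 FPKM: LGALS4, a galectin, at 42.5 FPKM, VIL1, the microvillus protein villin, at 14.7 FPKM, MUC13, a membrane mucin, at 14.5 FPKM, CDX2, the intestinal homeobox factor, at 3.26 FPKM, and TFF3, a trefoil peptide, at 1.18 FPKM. CDX1, FABP1, FABP2, MUC2, GPA33 and ISX were listed at 0. KRT20 belongs with these markers by its tissue of expression but is not on this list. TNNT1, the slow skeletal troponin T, was at 114 FPKM as the only one of 12 muscle markers at 1 FPKM or more. That value is its start sum, and its ends summed to 34.9 FPKM. MYOD1, MYOG, MYH1, MYH2, MYH7, DES and CKM were listed at 0.

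MAP2, a microtubule protein of neurons, at 24.3 FPKM, was the only one of 11 neural and melanocyte markers at 1 FPKM or more. PAX8, a factor of kidney and thyroid, at 7.56 FPKM, was the only one of 10 pancreas, kidney and lung markers. TRPS1, GATA3 and TP63 reached 6.30, 5.32 and 1.10 FPKM among 10 squamous, breast and prostate markers. None of 10 pluripotency and germ cell markers reached 1 FPKM, with POU5F1, LIN28A, ZFP42, DPPA2, DPPA4, DAZL and SYCP3 listed at 0. Of 19 cancer-testis antigens, normally silent outside the germ line, 3 reached it: MAGEA3 at 35.4 FPKM, MAGEC2 at 2.32 FPKM and MAGEC1 at 1.57 FPKM. MAGEA3 shares sequence with other MAGEA genes, so its reads may be split between near copies.

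**Figure D3:**
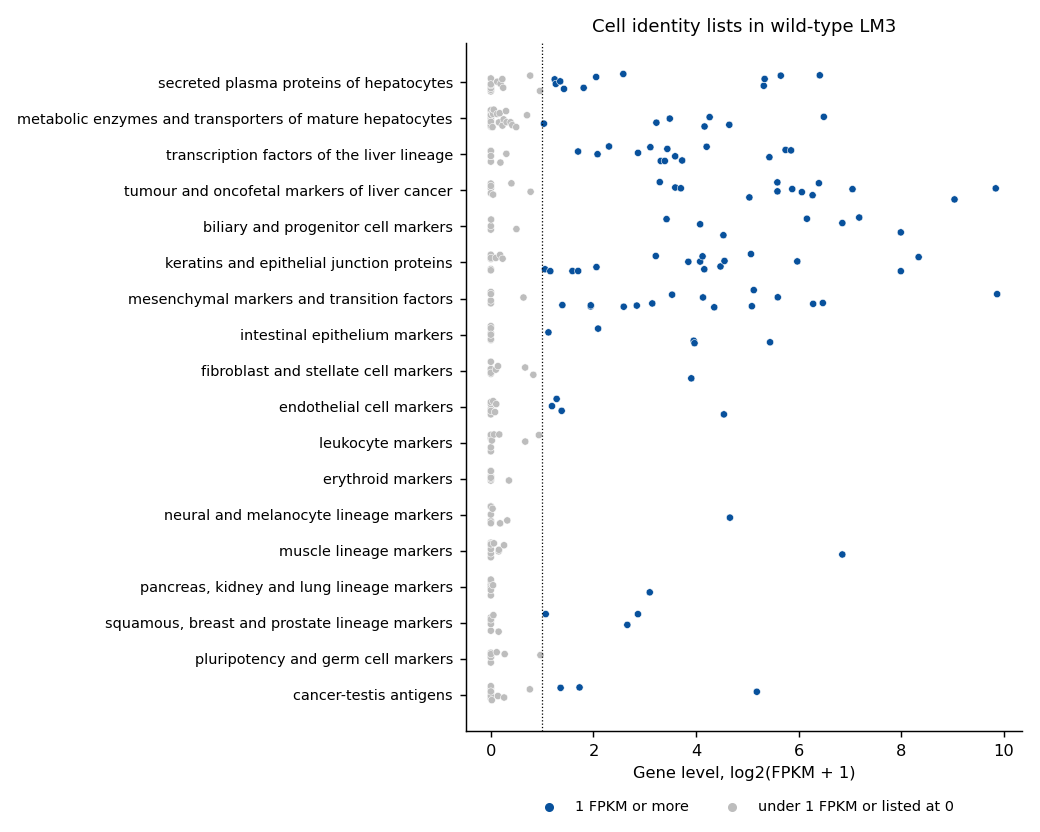
Members of 18 cell identity lists (rows) by level, log2(FPKM + 1), with blue points at 1 FPKM or more and grey points under it or listed at 0; the vertical spread of points is arbitrary. The liver factor, tumour, biliary, epithelial and mesenchymal lists have 63.6% to 71.4% of members at 1 FPKM or more, against 54.7% of all protein-coding genes. No leukocyte, erythroid or pluripotency marker reaches it.

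MET was 1 of a run of 4 neighbouring genes of high level. TES, a focal adhesion protein, was at 501 FPKM, CAV2, the partner of CAV1 in caveolae, at 999 FPKM, CAV1 at 1521 FPKM and MET at 1355 FPKM, all within chr7:116210493-116798386 and on the plus strand. Among 5032 windows of 4 neighbouring protein-coding genes at 1 FPKM or more within 1 Mb, this one had the highest geometric mean, 1008 FPKM. The median over windows was 14.5 FPKM and the 99th percentile 103 FPKM. It was the only window with all 4 genes at 500 FPKM or more, and 4 windows had all 4 at 100 FPKM or more. The next highest window, of JTB, RAB13, RPS27 and TPM3 on chromosome 1, had a geometric mean of 539 FPKM, with RPS27 at 5173 FPKM in it. Windows overlap and share genes, and this region was singled out after its values were seen.

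The high levels stopped on both sides of the run. TFEC, a transcription factor that lies before TES, was at 3.64 FPKM. On the other side, the locus of CAPZA2, ST7 and other symbols, 139 kb from the start of the MET locus, had 71.7 FPKM, and WNT2, ASZ1 and CFTR were listed at 0. The locus of LINC01510 and neighbours, which lies between CAV1 and MET, had 23.9 FPKM. CAV1 had starts at 116526293 with 1012 FPKM and at 116524785 with 509 FPKM, whereas the level of MET, CAV2 and TES lay on 1 start each. DNA copy number was not measured in these data. Among the other 20 receptor and ligand genes of the same list with a value, the highest was EPHA2, an ephrin receptor, at 35.4 FPKM, followed by FGFR4 at 21.7 FPKM, EGFR at 16.3 FPKM, EPHB4 at 12.7 FPKM and MERTK at 11.7 FPKM. FGFR2, FGF19, KIT and RET were listed at 0.

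**Figure D4:**
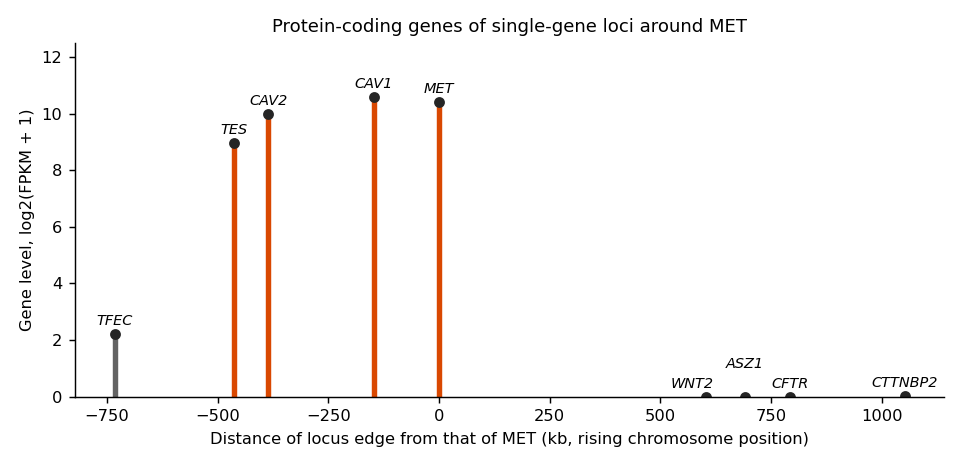
Level, log2(FPKM + 1), of the protein-coding genes of single-gene loci around MET, placed by the distance of the lower edge of each locus from that of MET in kb. TES, CAV2, CAV1 and MET stand at 501 to 1521 FPKM between genes at 3.64 FPKM and at 0.

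The caveola list, drawn up after values were seen, did not follow CAV1 and CAV2 as a whole. Of 7 members with a value 3 reached 1 FPKM, the third being EHD2, an ATPase at the caveola neck, at 60.8 FPKM. CAV3, the muscle caveolin, and PTRF, SDPR and PRKCDBP, the cavins that coat caveolae, were listed at 0.

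Genes of redox metabolism were put into a list after their values were seen, so their counts describe the choice and are no result about the group. All 20 NRF2 targets and NADPH enzymes with a value were at 1 FPKM or more, and 17 were at 100 FPKM or more, where 3.7% of protein-coding genes were. The median of the 20 was 346 FPKM. Besides NQO1 and TXN, MGST1, a membrane glutathione transferase, was at 873 FPKM, PRDX1, a peroxiredoxin, at 791 FPKM, and TALDO1, transaldolase, at 668 FPKM. KEAP1, which marks NRF2 for degradation and was chosen after its value was seen, was at 5.53 FPKM, and NFE2L2, the gene of NRF2 itself, lay in a locus of several genes. Of 12 aldehyde dehydrogenases with a value, again from a list made later, 10 reached 1 FPKM, led by ALDH1A1, which oxidises retinal, at 767 FPKM and ALDH3A1 at 456 FPKM. The ALDH1A1 value came from transcript ends alone, since its starts were listed at 0.

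S100 proteins and annexins, also listed after values were seen, were uneven. Of 26 with a value, 15 reached 1 FPKM and 9 reached 100 FPKM. After the 4 among the 30 highest genes came ANXA5, an annexin that binds phosphatidylserine, at 341 FPKM and ANXA1 at 287 FPKM. S100A1, S100A7, S100A8, S100A12, S100B, S100G, ANXA6 and ANXA8 were listed at 0.

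Of the housekeeping genes with a value, nearly all were at 10 FPKM or more, though many others of these groups lay in loci of several genes. All 40 cytosolic ribosomal proteins with a value were at 100 FPKM or more, with a median of 689 FPKM. The other 39 lay in loci of several genes. All 13 translation factors were at 10 FPKM or more, with EIF1, which selects the start codon, at 632 FPKM, EIF5A at 523 FPKM and EIF3E at 245 FPKM. All 25 proteasome subunits reached 10 FPKM, with PSMB4 of the core particle at 496 FPKM and PSMD4, a ubiquitin receptor, at 263 FPKM. All 14 cytosolic chaperones and 15 of 16 endoplasmic reticulum chaperones reached 1 FPKM, among them HSPD1, the mitochondrial chaperonin, at 486 FPKM, HSP90AA1 at 439 FPKM, P4HB, a disulfide isomerase, at 538 FPKM and CALR, calreticulin, at 442 FPKM. Of 13 cytoskeletal genes, 12 reached 1 FPKM, with TMSB4X at 993 FPKM, CFL1, cofilin, at 842 FPKM and PFN1, profilin, at 736 FPKM, and TUBB6 was listed at 0.

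Energy metabolism differed between members of the same step. Of 18 glycolytic genes with a value, 16 reached 1 FPKM. The median was 311 FPKM over those 16 and 133 FPKM over all 18. LDHB and LDHA, subunits of lactate dehydrogenase, were at 992 and 420.1 FPKM, ALDOA, an aldolase, at 899 FPKM, and TPI1, triosephosphate isomerase, at 862 FPKM. Of the hexokinases, HK1 was at 64.9 FPKM and HK2, often high in cancer cells, at 0.117 FPKM. HK1, HK2 and LDHA fall outside the naming rule. Of 26 nuclear genes of the respiratory chain and ATP synthase, 25 reached 1 FPKM, led by ATP5B of ATP synthase at 565 FPKM, COX4I1 of cytochrome oxidase at 377 FPKM and COX6C at 270.4 FPKM, and UQCRFS1 of complex III was listed at 0. None of the 13 mitochondrially encoded genes had a listed event.

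Iron, antigen presentation and histone genes were more mixed. Of 13 genes of iron and metal handling, 8 reached 1 FPKM. After FTH1 came TFRC, the transferrin receptor, at 154 FPKM, SLC40A1, the iron exporter ferroportin, at 58.6 FPKM, SLC39A14 at 31.5 FPKM and SLC11A2 at 24.6 FPKM, both metal importers. TFR2, MT1E, MT1F and MT1M were listed at 0. Of 9 antigen presentation genes with a value, 4 reached 1 FPKM, B2M, the light chain of MHC class I, at 868 FPKM, PSMB8 of the immunoproteasome at 23.1 FPKM, TAPBP, the peptide-loading factor tapasin, at 22.2 FPKM and TAP1, a peptide transporter, at 8.57 FPKM. Of 10 histone genes with a value 7 reached 1 FPKM, led by the replication-independent histones H3F3A at 399 FPKM and H3F3B at 284 FPKM.

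All 28 proliferation and replication genes with a value were at 10 FPKM or more, with a median of 66.6 FPKM. CDK4, the cyclin-dependent kinase of the first growth phase, was at 172 FPKM, PCNA, the sliding clamp of replication, at 166 FPKM, TK1, thymidine kinase, at 117 FPKM, PLK1, a mitotic kinase, at 108 FPKM, MCM4 of the replicative helicase at 107 FPKM and FOXM1, a factor of mitotic genes, at 105 FPKM. Among genes often mutated in liver cancer, 14 of 16 with a value reached 1 FPKM. CTNNB1, beta-catenin, was at 167 FPKM, AXIN1, which marks beta-catenin for destruction, at 32.1 FPKM, RPS6KA3, a kinase downstream of ERK, at 30.6 FPKM and TSC2, a brake on mTOR, at 13.9 FPKM.

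CDKN2A was at 89.3 FPKM. This locus encodes the cell cycle inhibitor p16 and, from a separate upstream first exon, the p53 regulator p14ARF. All of its start level lay on the start at 21994491 of chromosome 9, minus strand, and its 7 other starts were listed at 0. Those include the starts at 21974827 and 21975098, downstream of it, and the start at 21995301, which is 23 bases from the upstream RefSeq start. The start with a level lies 833 bases from that RefSeq start. Of 9 long noncoding RNAs with a value, 3 reached 1 FPKM: GAS5, a snoRNA host, at 94.5 FPKM, MALAT1, a nuclear RNA, at 15.0 FPKM and OIP5-AS1 at 5.22 FPKM. NEAT1, DANCR, HULC and LINC-ROR were listed at 0.

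Most genes used 1 transcript start. Of the 8301 kept genes with a start above 0, 5827 had 1 start, which is 70.2%, 2035 had 2, 392 had 3, 46 had 4 and 1 had 5. The median number of starts listed per gene was 3, so most listed starts had no level. The share of genes with 1 start was 68.1% at 1 to under 10 FPKM, 71.0% at 10 to under 100, 78.2% at 100 to under 1000 and 80% at 1000 FPKM or more. The share went up with the level class, and the last class holds only 30 genes. This order depended on low starts: counting only starts of 1 FPKM or more, the shares were 81.2%, 71.3%, 78.2% and 80%, with the lowest class the highest. Where a gene had several starts, the leading start held a median of 65.7% of its start level. The 2035 genes with 2 starts had them a median of 1539 bases apart, and 103 of these genes had both at the same position.

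No gene at 10 FPKM or more had over 4 starts, and the 10 highest of those with 4 are given. HNRNPF, an RNA-binding regulator of splicing, had 167 FPKM over 4 of 6 listed starts, with 33.2% on the leading one. CAST, the calpain inhibitor calpastatin, had 90.3 FPKM over 4 of 16 listed starts, at 27.8, 21.3, 20.6 and 20.6 FPKM. Its 4 starts were therefore close to equal. MIR99AHG, a noncoding RNA that hosts microRNA genes, had 29.7 FPKM with 83.7% on its leading start, the least even of the 10. The others were TMEM59 at 94.9 FPKM, SRSF11, a splicing factor, at 38.1 FPKM, LEMD2 at 28.5 FPKM, MTCL1 at 25.3 FPKM, SLC11A2 at 24.6 FPKM, LENG8 at 24.5 FPKM and MEN1, the menin tumour suppressor, at 23.9 FPKM. The MEN1 starts of 7.12 and 6.81 FPKM lay at the same position, 64810741, with first exons of unlike length.

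Few genes with an end above 0 had more than 1. Of the kept genes, 69.4% had an end above 0, and 93.5% of those had 1. No end above 0 was listed for 2594 kept genes, whereas 163 lacked a start, so ends and starts cannot be compared in number. Among the 6660 genes with a listed pair of forms, with and without an exon or intron, 2436 had both forms above 0, which is 36.6%. That share was 43.7% at 1 to under 10 FPKM, 33.0% at 10 to under 100, 19.1% at 100 to under 1000 and 17.4% at 1000 FPKM or more. The share went down with each class, and the part that low-level forms play in this order was not tested.

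Leading starts lay near annotated ones for most genes. For 6280 genes with a RefSeq start in the table used, the leading start lay within 50 bases of it in 54.4% and within 500 bases in 88.4%. It lay more than 1000 bases downstream in 335 genes and more than 1000 bases upstream in 176. The highest of the 335 was LMNA, the gene of nuclear lamins A and C. Its 598 FPKM lay on the start at 156114670, which is 7954 bases downstream of the nearest RefSeq start used. Other listed LMNA starts lay close to it, at 156114711 and 156114713, with no level. The RefSeq starts used may not include every known start, so this distance does not show that the LMNA start is unusual. ATP9B, a phospholipid transporter of the Golgi, had 424 FPKM, of which 95.6% lay on a start 274745 bases downstream, while its first start, close to the RefSeq start, had 18.4 FPKM. The level of ATP9B thus rests on that inner start. The level of TNNT1 also lay on a start inside the gene, 2257 bases downstream, and the start 13 bases from the RefSeq start was listed at 0. LMNA and ATP9B were chosen after their values were seen.

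**Figure D5:**
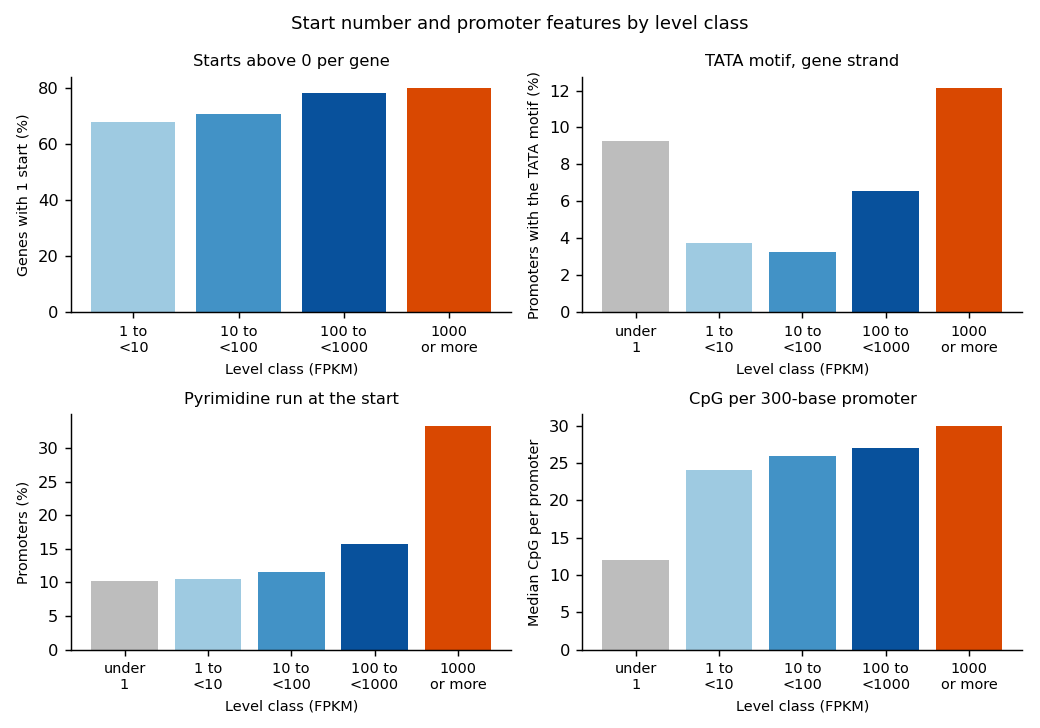
Top left, share of genes with 1 start by level class; other panels, share of RefSeq promoters with TATAAA, share with a pyrimidine run at the start, and median CpG number, by level class of the gene in FPKM. All 4 measures are highest at 1000 FPKM or more, which holds 33 promoters, and the TATAAA share is lowest at 10 to under 100 FPKM.

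Promoter sequence was read from RefSeq promoters of 300 bases, 250 before to 50 after each annotated start. A promoter was given for 6390 of the 8464 kept genes. The TATAAA motif, the core of the TATA box that positions the polymerase, was searched on both strands. On the strand of the gene it was in 9.27% of promoters of protein-coding genes under 1 FPKM, 3.75% at 1 to under 10, 3.28% at 10 to under 100, 6.59% at 100 to under 1000 and 12.1% at 1000 FPKM or more, against 6.03% of all 15893 promoters. On the other strand the shares were 4.80%, 3.32%, 2.60%, 3.29% and 3.03%. Genes under 1 FPKM thus had the highest share on the other strand, and came next after the top class on the strand of the gene. In the top class 4 of 33 promoters held it, from 27 genes, so that share rests on few promoters. The median number of CpG pairs per promoter went up with the classes, from 12 under 1 FPKM to 24, 26, 27 and 30.

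Among the genes considered for printing, the 6 highest with TATAAA in the 50 bases before a RefSeq start, itself within 100 bases of the leading start, are shown, from 60 bases before to 20 after the RefSeq start on the strand of the gene, with the motif in capitals. They are credited to RefSeq, build GRCh38.p14. These are genes of protein folding, translation, membrane traffic, nucleotide exchange and growth control. SLC25A5, an ADP/ATP carrier, was at 873 FPKM, CALR at 442 FPKM and ID1, an inhibitor of DNA binding, at 419 FPKM. The windows are chr7:44796621-44796700 (plus), chr12:120201092-120201171 (minus), chr15:60397967-60398046 (minus), chrX:119468384-119468463 (plus), chr19:12938549-12938628 (plus) and chr20:31605229-31605308 (plus), in the order printed.
PPIA: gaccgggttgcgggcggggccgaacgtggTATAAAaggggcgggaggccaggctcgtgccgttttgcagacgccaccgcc
RPLP0: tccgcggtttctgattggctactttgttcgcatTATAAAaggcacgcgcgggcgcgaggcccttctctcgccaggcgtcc
ANXA2: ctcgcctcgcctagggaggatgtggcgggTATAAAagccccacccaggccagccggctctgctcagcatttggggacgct
SLC25A5: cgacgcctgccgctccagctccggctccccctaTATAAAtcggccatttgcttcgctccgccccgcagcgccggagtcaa
CALR: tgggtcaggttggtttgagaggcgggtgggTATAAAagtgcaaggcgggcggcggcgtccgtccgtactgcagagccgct
ID1: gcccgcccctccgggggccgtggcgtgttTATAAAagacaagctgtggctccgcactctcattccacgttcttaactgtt
In all of them the motif began 27 to 31 bases before the RefSeq start. For RPLP0 the leading start in these data lay 100 bases before the RefSeq start, and so upstream of the motif. A match is a description of the letters and not evidence of use.

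Ribosomal protein messages of mammals are known to begin with a C followed by a run of pyrimidines, through which their translation is regulated. Such a run, a C followed by 4 of C or T within 2 bases of the RefSeq start, was in 25 of 42 promoters of ribosomal protein genes, which is 59.5%, against 10.9% of all promoters. By level class the share was 10.2% under 1 FPKM, 10.5%, 11.5% and 15.8% in the next classes and 33.3% at 1000 FPKM or more. Of the 30 genes of the last class, 13 encode ribosomal proteins. The 5 highest ribosomal genes with the run, chosen from the same genes and under the same condition on the leading start, are shown as above, with the run in capitals, in the windows chr1:153990702-153990781 (plus), chr12:56116573-56116652 (plus), chr19:39435930-39436009 (minus), chr9:124861938-124862017 (minus) and chr12:120201092-120201171 (minus).
RPS27: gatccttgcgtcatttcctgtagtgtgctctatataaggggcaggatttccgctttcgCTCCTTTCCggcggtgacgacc
RPL41: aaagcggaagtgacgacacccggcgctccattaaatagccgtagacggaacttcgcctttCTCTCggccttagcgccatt
RPS16: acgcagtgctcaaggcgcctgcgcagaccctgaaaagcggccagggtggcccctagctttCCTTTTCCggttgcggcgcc
RPL35: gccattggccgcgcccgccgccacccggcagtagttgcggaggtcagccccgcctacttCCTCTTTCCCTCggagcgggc
RPLP0: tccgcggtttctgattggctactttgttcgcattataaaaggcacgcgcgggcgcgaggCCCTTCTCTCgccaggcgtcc
RPLP0 is in both sets, with a TATAAA and a pyrimidine run. The leading start in these data lay 3 bases before the RefSeq start for RPS27, 43 before it for RPL41 and 34 after it for RPS16. For RPL35 and RPLP0 it lay 24 and 100 bases before the RefSeq start. The deposited starts thus do not place the run to the base. The leading RPLP0 start lies before the printed window, so its TATAAA and pyrimidine run are both downstream of that start.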

How the data were processed

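RNA was measured in 1 wild-type LM3 library. Messages with a poly-A tail were selected, amplified by 12 PCR cycles as cDNA and sequenced from both ends at 100 bases, per the labels' protocols. Values were deposited by the authors in FPKM, per the file headers, as a row per event of a locus, each event being a start, an end or a spliced form. The locus names carry the prefix CUFF. The submitters' processing notes name Bowtie 0.12.2 and the build hg38, with no role. Which program called events, on which annotation and with or without strand, is not given in the sources used here. Antisense and overlapping genes may therefore share reads. The table holds no read counts, so depth is unknown and no interval is given.

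Of 322464 events, 25.3% were above 0. Starts and ends were summed per gene symbol in the 29743 loci of 1 symbol, and the larger sum was the gene's value. In 4713 of the 8464 kept genes both sums were within 5% of each other, and 2594 had no end above 0, so values can be too low. Where the sums differ, taking the larger can also set a value too high. The deposited event values repeat between types, so types were not added. Gene types came from GENCODE 29, matched by symbol for 19325 genes. Named genes were the 30 highest, the 10 at 10 FPKM or more with the most starts, up to 6 highest members of each list, cell type markers listed at 0 and genes beside the limit of 1 FPKM; exceptions are said. Genes of chromosome Y and XIST are not named. The members and lists were chosen with earlier results of these data known, and the lists of NRF2 and NADPH, S100 and annexin, caveola and aldehyde dehydrogenase genes were added after values were seen. The summing was run on simulated data in which the starts always held the full level of a gene. That run checks the arithmetic only and does not cover failed starts. Python 3.11.15, numpy 2.4.6, pandas 2.3.3, scipy 1.17.1 and matplotlib 3.10.9 were used. Alternatives were other gene values, loci, minimum levels, scaling to TPM, gene sets, start and end minimums, a pseudocount of 0.1 in place of 1, and other motif settings. Genes of 1 chromosome besides Y were not considered for printed sequences. Some genes that the naming rule covers are not reported here.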

Additional observations from a re-analysis of the deposited data

How the results depend on the processing

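The library has no replicate to leave out, and no level has an error. No paired analysis was possible because 1 library was used and no test was made. Depth is unknown, which limits what can be said of low genes. Of 828 results under an alternative, 649 stayed within 1.5 times the reported value, or within the binomial interval of a share, and 179 moved. Part of the 649 could not move by construction, such as the level classes under a minimum of 0.5 FPKM. The count is therefore no measure of how robust the results are. The shares of the summed level held by the highest genes stayed so under each alternative run for them. The genes at 1 FPKM or more numbered 12998 with loci of several symbols kept and 4713 where start and end sums were within 5%. With several symbols kept, each symbol took the full level of its locus. Counts in that setting therefore include genes that may have no message of their own. The level classes, low to high, had 6579, 1205 and 97 genes in the upper 3 classes with several symbols kept. They had 2001, 2396 and 296 genes in the lower 3 where sums were within 5%. Scaled to TPM over the single-gene loci alone, the classes of 1 to under 10, 100 to under 1000 and 1000 or more held 2308, 1857 and 120 genes. Scaling over all loci would give lower values. The class of 1 to under 10 FPKM held 1564 with a minimum of 5 FPKM, and that of 10 to under 100 FPKM held 2764 from ends alone. The share of genes with 1 start was 73.9% where the level came from ends alone, 63.5% with several symbols kept, 75.8% where sums were within 5%, 75.9% counting starts of 1 FPKM or more and 71.5% counting distinct positions, an alternative added after seeing the data. The share with 1 end was 91.9% with several symbols kept and 94.5% with a minimum of 5 FPKM. With TATAA in place of TATAAA the shares of promoters in the first 4 classes, from under 1 FPKM up, were 16.6%, 8.05%, 7.55% and 11.6%. Within 50 bases before the start the TATAAA shares were 5.18%, 1.38%, 1.21% and 3.12%.

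List counts moved by over 1.5 times in 58 of 342 cases. List medians, compared in FPKM, did in 93 of 370, of which 34 were under TPM scaling, which multiplies every level, and 23 with members under 1 FPKM included. From ends alone, the members at 1 FPKM or more were 7 secreted plasma proteins, 7 tumour markers, 3 biliary markers, 0 neural markers, 9 glycolytic genes, 16 proteasome subunits, 9 endoplasmic reticulum chaperones, 17 proliferation genes, 9 receptor genes, 7 cytoskeletal genes and 1 long noncoding RNA. Where sums were within 5% they were 6 secreted proteins, 3 hepatocyte enzymes, 5 tumour, 3 biliary, 10 keratin and junction, 0 neural and 0 muscle markers, 22 ribosomal proteins, 7 translation factors, 7 glycolytic genes, 13 respiratory genes, 11 proteasome subunits, 9 endoplasmic reticulum and 7 cytosolic chaperones, 14 proliferation genes, 9 mutated genes, 8 receptor genes, 3 iron genes, 6 cytoskeletal genes and 1 long noncoding RNA. These 2 alternatives drop genes without a matching end, by construction. With several symbols kept they were 3 fibroblast, 3 leukocyte, 2 erythroid, 2 muscle and 1 pluripotency markers, 79 ribosomal proteins, 24 translation factors, 10 antigen presentation genes, 23 cytoskeletal genes and 10 long noncoding RNAs. Each symbol carries the full level of its locus there, so a marker can count through another gene of that locus. A minimum of 5 FPKM left 4 secreted proteins, 1 endothelial marker, 3 intestinal markers, 1 cancer-testis antigen and 9 receptor genes. A minimum of 0.5 FPKM and TPM scaling each gave 3 fibroblast, 2 leukocyte and 1 pluripotency markers. Protein-coding genes alone left 0 long noncoding RNAs.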

Other observations

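Of 230 loci without a gene symbol, the highest had 8379 FPKM, on 2 events within chr6:31271073-31356367, above FTH1 at 5875 FPKM. The next highest, within chr2:238560147-238561163, had 37.1 FPKM. Loci without a symbol held 1.80% of the summed level of all loci. The files give no name for their transcripts.

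CES1, a carboxylesterase of liver, was at 534 FPKM, and UCHL1, a deubiquitinase best known from neurons, at 652 FPKM, of which 330 FPKM lay on the leading of its 2 starts. Both belong to no list used here and were chosen after their values were seen. NCOA5, the gene targeted in the other genotype of the study, was at 20.03 FPKM in the wild-type library, on 1 start 10 bases from the RefSeq start.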
